A study of Homo sapiens with 10 samples.

Results

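The translation initiation and elongation factors were followed during exposure to WA-68 in HS-SY-II cells, an established line from a human synovial sarcoma. They were taken as the protein-coding rows of the count table whose symbol begins with EIF1 to EIF6, EEF1 or EEF2. The EIF2AK kinases, EEF2K, EIF1AY and pseudogenes were left out, which removed 6 protein-coding rows. This gave 65 genes of 63140 gene identifiers. Of these, 61 held enough counts to be tested and 4 did not. EIF4E1B had 0 to 4 counts per library and EIF2S3B had 4 to 14. The read-through genes EEF1E1-BLOC1S5 and EEF1AKMT4-ECE2 had 0 counts in every library. The comparisons below therefore cover the 61 genes that passed the filter and not the whole family.

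The cells received the DMSO vehicle, or WA-68 at 100 nM for 12, 24, 48 or 96 h. WA-68 is a PROTAC, a molecule that brings its target to a ubiquitin ligase for degradation, and its target is the bromodomain protein BRD9. Each of the 5 groups held 2 biological replicates, so 10 libraries of poly(A) RNA were compared, and all of them come from a single cell line. When the DMSO cultures were harvested is not stated in the labels, so time in culture cannot be told apart from treatment in a comparison with DMSO. Library totals ran from 7349744 to 13200051 assigned counts. The 7 genes taken as marks of synovial sarcoma were all tested, and TLE1, for example, stood at 192 to 248 CPM. PTPRC, CD3E, PECAM1 and MYOD1, which mark leukocytes, endothelium and muscle, had 0 counts in every library, and the 6 further markers of these cells had 0 to 8 counts per library.

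Translation of an mRNA begins when eIF4E binds its cap and, with the scaffold eIF4G and the helicase eIF4A, recruits a small ribosomal subunit that carries eIF3, eIF1, eIF1A and the eIF2 complex with initiator tRNA. eEF1A then delivers each aminoacyl-tRNA, the eEF1B subunits recharge eEF1A with GTP, eEF2 moves the ribosome along, and eIF5A helps at sequences where it stalls. Several of these factors are encoded by 5′ TOP mRNAs, which begin with a run of pyrimidines and whose translation depends on mTOR. EIF4EBP1 encodes a protein that holds eIF4E inactive until mTOR phosphorylates it. RNA levels alone were measured here, so neither translation rates nor the amounts of these proteins are known.

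The first bases of the transcripts are shown because the pyrimidine run defines the TOP class. RefSeq promoter windows on GRCh38.p14 were given for 52 of the 65 genes, and the first listed window was used where a gene had several. Each sequence runs 5′ to 3′ on the strand of the gene, from 10 bases before the annotated start to 20 bases from it on. Capitals mark the unbroken run of C and T that holds the start base, where it has 6 or more letters.
EEF1A1 (chr6:73521013-73521042, minus strand): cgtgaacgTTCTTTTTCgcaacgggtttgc
EEF2 (chr19:3985444-3985473, minus strand): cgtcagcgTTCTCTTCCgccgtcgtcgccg
EIF4B (chr12:53006446-53006475, plus strand): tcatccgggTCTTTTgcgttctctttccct
EIF3F (chr11:7987327-7987356, plus strand): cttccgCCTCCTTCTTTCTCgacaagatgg
EIF3D (chr22:36529147-36529176, minus strand): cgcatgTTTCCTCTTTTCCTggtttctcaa
EIF5A (chr17:7306989-7307018, plus strand): tgggaacccgaccacactagcgcgctagaa
EIF3B (chr7:2354817-2354846, plus strand): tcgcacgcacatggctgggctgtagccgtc
The first 4 genes are on the list of known TOP mRNAs, and EIF3D, EIF5A and EIF3B are not. The other listed TOP genes with a window, EEF1B2 and EEF1G, had no C or T run at the annotated start and are not shown. The run had 9 letters in EEF1A1 and in EEF2, 6 in EIF4B, and 14 in EIF3F and in EIF3D. EIF5A and EIF3B had no C or T run at the annotated start. A run of 6 or more was found in 4 of the 6 listed TOP genes with a window (66.7%), in 8 of the 46 other factors (17.4%) and in 1468 of 22199 protein-coding windows (6.6%). These matches describe the annotated starts, which may differ from the starts used in HS-SY-II. Each factor was counted once, by its first listed window, while the 22199 windows include all those listed for a gene.

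Over the whole family, scaled transcript levels were lower with WA-68 and furthest from DMSO at 96 h. The summed level of the factors was 21628 and 21181 CPM in the DMSO libraries, 20386 and 20041 CPM at 12 h, 18469 and 18755 CPM at 24 h, 19332 and 18006 CPM at 48 h, and 16211 and 17069 CPM at 96 h. CPM here are counts scaled to a common library size with TMM factors, so each level is relative to the rest of the library. In bulk RNA, fewer cells that express a gene and less RNA per cell cannot be told apart. After this scaling both libraries of each time lay below both DMSO libraries. At 12 h this depended on the scaling. As a plain share of all counts the factors held 2.108% and 2.029% in DMSO and 2.048% and 2.038% at 12 h. The 12 h shares thus lay within the DMSO range. Those of 24 h (1.854% and 1.891%), 48 h (1.927% and 1.829%) and 96 h (1.664% and 1.655%) lay below it. EEF1A1 alone made up a large part of the CPM sums. Without it the sums were 10132 and 10731 CPM at 96 h, against 12445 and 12636 CPM in DMSO, and the 96 h libraries again lay below those of DMSO.

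The number of factors that passed the test grew with time. A gene was called at an edgeR quasi-likelihood adjusted p under 0.05. At 12 h 0 factors rose and 1 fell, which is 1.64% of those tested, against 3.15% of all genes called in either direction (1.23% higher, 1.92% lower). At 12 h 10 factors had an unadjusted p under 0.05, while DESeq2 called 0 higher and 2 lower and limma-voom called 0 higher and 1 lower. At 24 h 1 rose and 2 fell, or 4.92%, against 3.6% of all genes (1.34% higher, 2.25% lower). These shares rest on few calls, and with an offset for GC content the counts were 1 higher and 8 lower at 12 h and 1 higher and 12 lower at 24 h. The shares of all genes given here come from the fit without this offset, so these larger counts cannot be set against them. At 48 h 1 rose and 7 fell, or 13.1%, against 9.39% of all genes (4.01% higher, 5.38% lower). With RLE size factors the split at 48 h was 2 higher and 6 lower, and with library size only it was 2 and 5. At 96 h 1 factor rose and 14 fell, or 24.6%, against 13% of all genes. The background at 96 h was 6.14% of genes called higher and 6.86% called lower.

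The shift below DMSO was broad and small. Of the 61 factors, 48 had a log2 fold change below 0 at 12 h, 50 at 24 h, 55 at 48 h and 53 at 96 h. The median log2 fold change of the factors was -0.10, -0.14, -0.16 and -0.22 at 12, 24, 48 and 96 h, and that of all tested genes lay between -0.01 and 0.00 at each time. These 4 comparisons share the same 2 DMSO libraries, so their medians are not independent of each other. Between the 2 DMSO replicates the factors differed by a median of 0.144 in log2 units, whichever the direction, and by as much at 96 h. The median log2 fold changes at 12 and 24 h were no larger in size than this difference. They are signed, so rises offset falls, and they compare means of 2 libraries. The replicate difference is unsigned and compares single libraries, so the 2 measures are not alike. The factors were also more abundant than most genes, with a median level of 85.7 CPM against 22.2 CPM over all genes tested, which makes small changes easier to call. Its part in the share called was not tested.

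**Figure D1:**
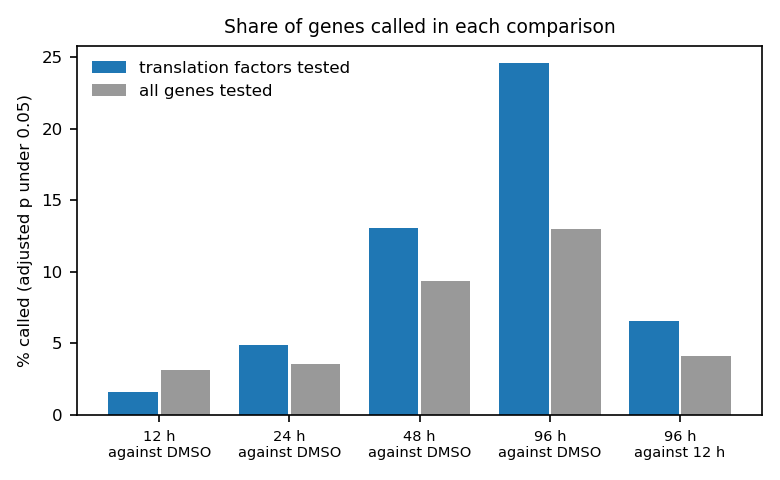
Bars give the percent of genes called (edgeR adjusted p under 0.05, y axis) in each comparison (x axis), blue for the 61 translation factors tested and grey for all 16382 genes tested. The blue bar is below the grey one at 12 h (1.64% and 3.15%) and above it at 96 h (24.6% and 13%).

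Both second replicates at the ends of the series, those of 96 h and of DMSO, stood apart. On the second principal component of all genes they had scores of -26.0 and -24.2, against -0.71 to 14.4 for the remaining 8 libraries. In the DMSO pair, replicate 1 minus replicate 2 correlated negatively with transcript GC content (Spearman's rho -0.571 over 15694 genes, which are not independent replicates). In the pairs of 12, 24, 48 and 96 h rho was 0.059, 0.167, 0.292 and -0.289. Leaving out both second replicates left 1 library of DMSO and 1 of 96 h, so the spread came from the other pairs. In the factors the median absolute log2 difference within those pairs was 0.065, 0.063 and 0.103 at 12, 24 and 48 h. It was 0.144 in DMSO and at 96 h. That fit cannot decide whether the 96 h calls hold, so only its fold changes are used here. At 96 h they were -0.59 for EEF1A1, -0.63 for EEF1B2, -0.51 for EEF2 and 0.77 for EEF1A2. Each of the 15 factors called at 96 h kept its direction. With an offset for GC content in each library, the 15 were called again, within totals of 1 higher and 22 lower. The shares of all genes above come from the fit without this offset.

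Among the elongation factors, EEF1A1 and EEF1A2 went opposite ways. EEF1A1 (ENSG00000156508, GRCh38 chromosome 6, 73515750 to 73523797) encodes the eEF1A found in nearly all cells and was the most abundant factor per length, at 1490 CPM per kb in DMSO, before EEF2 at 759 CPM per kb. It had 9183 and 8544 CPM in the DMSO libraries, 8948 and 8648 CPM at 12 h, 7407 and 7654 CPM at 24 h, 7957 and 7325 CPM at 48 h, and 6079 and 6338 CPM at 96 h. The 12 h libraries lay within the DMSO range, those of 24 and 48 h lay below it, and those of 96 h were lowest. EEF1A1 fell to a mean of 6209 ± 183 CPM at 96 h, against 8864 ± 452 CPM in DMSO (SD, n = 2 each), a log2 fold change of -0.51 (SE 0.073, edgeR adjusted p = 3.62e-05). At 24 and 48 h its log2 fold changes of -0.24 and -0.21 did not pass the test (edgeR adjusted p = 0.0767 and 0.0692).

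EEF1A2 was the only factor called higher at any of the 4 times. It encodes the eEF1A isoform that in adult tissue is largely limited to neurons and muscle (ENSG00000101210, GRCh38 chromosome 20, 63488012 to 63499322). Its levels were 115 and 136 CPM in the DMSO libraries, 156 and 154 CPM at 12 h, 172 and 166.5 CPM at 24 h, 201 and 195 CPM at 48 h, and 195 and 209 CPM at 96 h. Every WA-68 library lay above both DMSO libraries. The mean at 96 h was 202 ± 9.79 CPM, against 125.5 ± 15.4 CPM in DMSO (SD, n = 2 each). The log2 fold change of EEF1A2 was 0.31 at 12 h, which did not pass the test (SE 0.095, edgeR adjusted p = 0.0863), and 0.44 at 24 h, 0.66 at 48 h and 0.69 at 96 h, each of which did (edgeR adjusted p = 0.00964, 0.000108 and 2.62e-05). The transcript is rich in GC (64.8%), and its 96 h log2 fold change was 0.70 with the GC offset and 0.77 without the 2 libraries that stood apart. The call at 24 h was lost without replicate 1 of DMSO or either 24 h replicate (edgeR adjusted p up to 0.145).

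Counted against EEF1A1, EEF1A2 took a larger share at each later time. EEF1A2 made up 1.23% and 1.57% of the EEF1A1 and EEF1A2 counts in the DMSO libraries, 1.71% and 1.75% in the 12 h libraries, 2.27% and 2.13% in those of 24 h, 2.46% and 2.60% in those of 48 h, and 3.11% and 3.19% in those of 96 h. No library of one group overlapped with a library of another in this share. The 95% Wilson intervals ran from 2.98% to 3.24% and from 3.03% to 3.35% at 96 h, against 1.17% to 1.30% and 1.48% to 1.66% in DMSO, and they cover counting error only. The share is not corrected for transcript length. The 49 annotated EEF1A1 pseudogene rows held counts equal to 1.59% to 2.07% of those of EEF1A1, so reads could have been split between them.

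**Figure D2:**
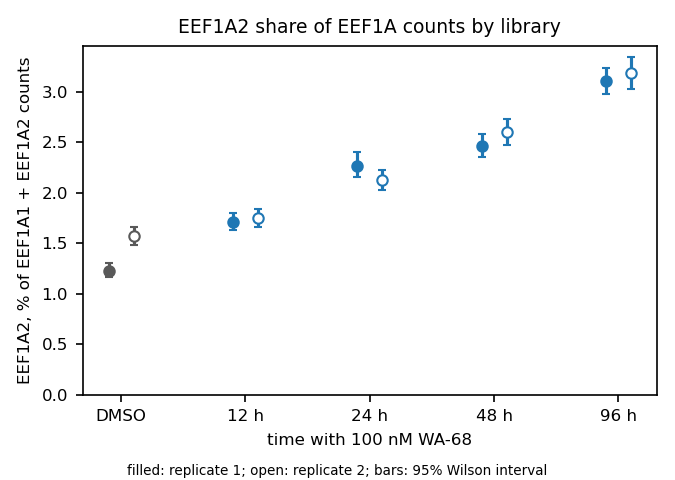
The y axis gives EEF1A2 as a percent of EEF1A1 plus EEF1A2 counts in each library, and the x axis the group, with 95% Wilson intervals as bars. The share is 3.11% and 3.19% at 96 h, against 1.23% and 1.57% in DMSO, and the groups do not overlap.

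EEF1B2, EEF2 and EIF5A also fell. EEF1B2 (ENSG00000114942, GRCh38 chromosome 2, 206159585 to 206162928), a subunit of the exchange factor that reloads eEF1A with GTP, had 346 and 326 CPM in the DMSO libraries, 319.5 and 305 CPM at 12 h, 267 and 276 CPM at 24 h, 274 and 242 CPM at 48 h, and 222 and 232 CPM at 96 h. Every WA-68 library lay below both DMSO libraries. Its log2 fold change was -0.38 at 48 h (SE 0.088, edgeR adjusted p = 0.00742) and -0.56 at 96 h (SE 0.089, edgeR adjusted p = 0.000111). The call at 48 h was lost without replicate 2 of 48 h (edgeR adjusted p = 0.215). EEF1D, another subunit of the same exchange factor, averaged 328 ± 0.51 CPM at 96 h, against 363 ± 29.6 CPM in DMSO (SD, n = 2 each), and did not pass the test (log2 fold change -0.14, edgeR adjusted p = 0.312). The third subunit, EEF1G, cannot be read from this table. It held 4 to 12 counts per library, and 99.9% of its annotated exons overlap another gene on the same strand, so its reads may not have been assigned.

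EEF2 (ENSG00000167658, GRCh38 chromosome 19, 3976056 to 3985469), the translocase, had 2864 and 3251 CPM in the DMSO libraries, 2696 and 2768 CPM at 12 h, 2574 and 2532 CPM at 24 h, 2656 and 2362 CPM at 48 h, and 2009 and 2422 CPM at 96 h. All WA-68 libraries lay below those of DMSO, and the 96 h replicates were far apart. The mean at 96 h was 2215 ± 292 CPM, against 3058 ± 274 CPM in DMSO (SD, n = 2 each), a log2 fold change of -0.46 (SE 0.09, edgeR adjusted p = 0.000938). EEF2 was also called at 48 h (log2 fold change -0.28, edgeR adjusted p = 0.046). DESeq2 did not call it at 48 h, and the call was lost without any single one of 7 libraries, among them both of 48 h and replicate 2 of DMSO (edgeR adjusted p up to 0.449).

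EIF5A (ENSG00000132507, GRCh38 chromosome 17, 7306999 to 7312463) had 311 and 309 CPM in the DMSO libraries, 280.4 and 278 CPM at 12 h, 272 and 263 CPM at 24 h, 242 and 223 CPM at 48 h, and 219 and 221 CPM at 96 h. The replicates of a group were close, and the groups did not overlap. Its log2 fold change was -0.42 at 48 h (SE 0.085, edgeR adjusted p = 0.00268) and -0.50 at 96 h (SE 0.085, edgeR adjusted p = 0.000281). Without replicate 2 of 48 h the call at 48 h was lost (edgeR adjusted p = 0.102). Its close relative EIF5A2 was low, at 14.4 ± 1.57 CPM at 96 h against 13.6 ± 2.80 CPM in DMSO (SD, n = 2 each). EIF5A2 passed the test at none of the 4 times, with its largest log2 fold change, 0.47, at 48 h (SE 0.15, edgeR adjusted p = 0.051). The remaining elongation gene, EEF1E1, a scaffold of the tRNA synthetase complex, had a log2 fold change of -0.02 at 96 h (edgeR adjusted p = 0.969).

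**Figure D3:**
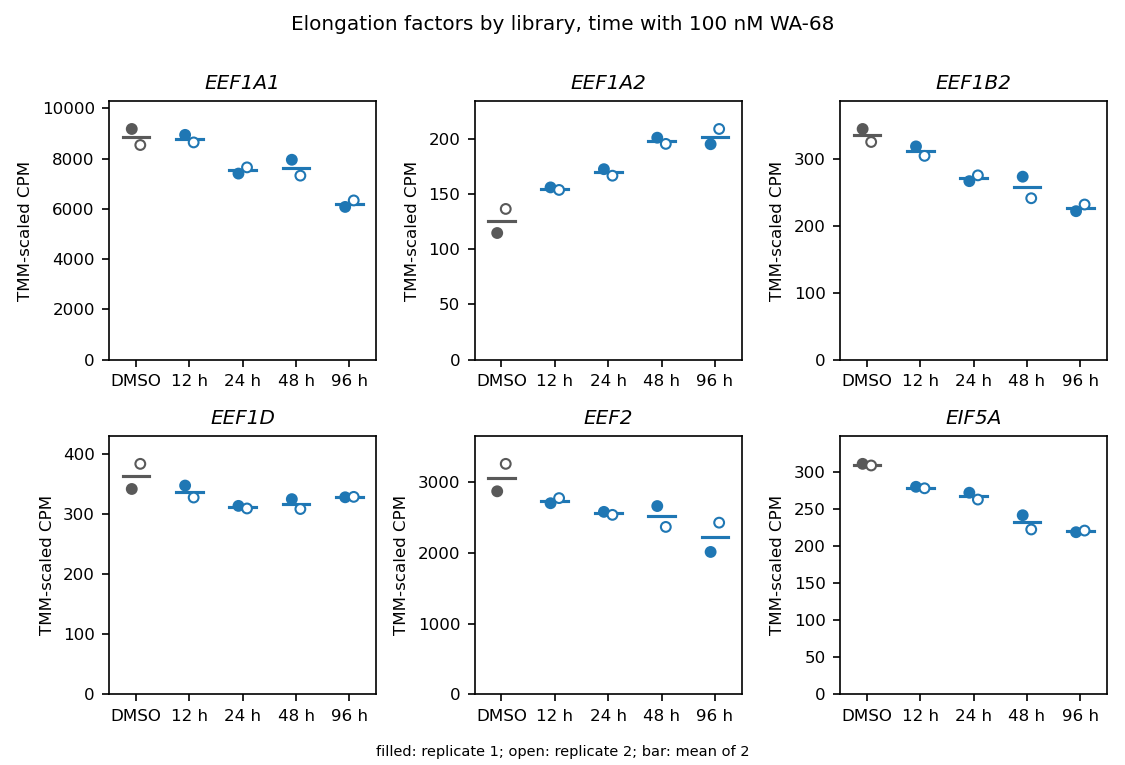
Each panel gives 1 gene, with TMM-scaled CPM on the y axis from 0 and the group on the x axis. Points are libraries and bars the mean of 2. EEF1A1, EEF1B2, EEF2 and EIF5A are lowest at 96 h, EEF1A2 is higher in every WA-68 library than in DMSO, and EEF1D is 328 CPM at 96 h and 363 CPM in DMSO on average.

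The genes around the cap divided between a fall in an inhibitor of eIF4E and smaller differences in the cap-binding factors themselves. EIF4EBP1 (ENSG00000187840, GRCh38 chromosome 8, 38030341 to 38060365) was the only factor called at each of the 4 times, and the only one called at 12 h. It had 47.7 and 60.3 CPM in the DMSO libraries, 37.6 and 36.5 CPM at 12 h, 38.05 and 34.5 CPM at 24 h, 31.0 and 29.1 CPM at 48 h, and 29.5 and 42.8 CPM at 96 h. All WA-68 libraries lay below both DMSO libraries, which themselves differed widely. Its log2 fold changes were -0.53, -0.57, -0.84 and -0.59 at 12, 24, 48 and 96 h, with SEs of 0.14 (edgeR adjusted p = 0.0295, 0.0194, 0.00048 and 0.00464). Only the call at 48 h held without each library in turn. At 12 h it was lost without replicate 2 of DMSO or either 12 h replicate (edgeR adjusted p up to 0.241), at 24 h without replicate 2 of DMSO or either 24 h replicate (up to 0.277), and at 96 h without replicate 1 of 96 h (0.168).

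The other eIF4E inhibitors did not pass the test at any time. EIF4EBP2, a close relative of EIF4EBP1 with the same role, averaged 331 ± 6.53 CPM at 96 h and 331 ± 5.56 CPM in DMSO (SD, n = 2 each), a log2 fold change of 0.00 (SE 0.082, edgeR adjusted p = 0.993). EIF4EBP3 had 10 to 24 counts per library and shares 73.4% of its exons with a read-through gene, ANKHD1-EIF4EBP3, so its counts are uncertain. EIF4ENIF1, which carries eIF4E into the nucleus, had a log2 fold change of 0.09 at 96 h (edgeR adjusted p = 0.634).

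Of the 11 cap-binding, helicase and scaffold genes tested, 1 fell at 96 h and 0 rose, and 6 had an unadjusted p under 0.05, all of them lower. The share called lower, 9.09%, is near the 6.86% of all genes. The one called was EIF4B, which assists the helicase eIF4A (ENSG00000063046, GRCh38 chromosome 12, 53006158 to 53042209). It had 1154 and 1147 CPM in the DMSO libraries, 956 and 976 CPM at 12 h, 937 and 966 CPM at 24 h, 1071 and 968 CPM at 48 h, and 907 and 942 CPM at 96 h. All WA-68 libraries lay below those of DMSO, and the ranges of 12 and 24 h overlapped. Its log2 fold change was -0.32 at 96 h (SE 0.079, edgeR adjusted p = 0.00856) and lay between -0.27 and -0.17 at the other times, none of which passed the edgeR test (adjusted p = 0.0872, 0.0535 and 0.185 at 12, 24 and 48 h). DESeq2 called it lower at 12 and 24 h, and limma-voom at 24 h.

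EIF4G1, the main scaffold of the cap complex, was called at 48 h. It had 618 and 708 CPM in the DMSO libraries, 567 and 529.6 CPM at 12 h, 548 and 527 CPM at 24 h, 565 and 491 CPM at 48 h, and 521.5 and 616.5 CPM at 96 h. Replicate 2 of 96 h lay just under replicate 1 of DMSO, so the gap at 96 h was narrow. Its log2 fold change was -0.33 at 48 h (SE 0.096, edgeR adjusted p = 0.0326) and -0.22 at 96 h, which did not pass (edgeR adjusted p = 0.139). The call at 48 h was lost without any single one of 6 libraries (edgeR adjusted p up to 0.411).

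EIF4E, the cap-binding protein itself, averaged 44.5 ± 1.25 CPM at 96 h and 55.1 ± 5.85 CPM in DMSO (SD, n = 2 each). Its log2 fold change at 96 h was -0.31 (SE 0.11) and did not pass the test (edgeR adjusted p = 0.0624), while it did with the GC offset (-0.27, edgeR adjusted p = 0.0246). The helicase gene EIF4A2 had a log2 fold change of -0.22 at 96 h (SE 0.11, edgeR adjusted p = 0.187). EIF4A1, the other helicase gene, had only 197 to 424 counts per library, and 48.6% of its exons overlap other genes on the same strand, so its log2 fold change of -0.26 (edgeR adjusted p = 0.158) is uncertain.

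The eIF3 complex holds the small subunit ready for the mRNA. Of its 14 genes 7 fell at 96 h and 0 rose, and all 14 had a log2 fold change below 0, with a median of -0.26 against -0.01 for all genes tested. The 7 called lower are 50% of the complex, against 6.86% of all genes. limma-voom called 7 lower and DESeq2 6. Earlier, edgeR, DESeq2 and limma-voom called 0 eIF3 genes at 12 h (2 with an unadjusted p under 0.05, edgeR), and edgeR called 1 at 24 h and 2 at 48 h. All of these were lower, at 7.14% and 14.3% of the complex, against 2.25% and 5.38% of all genes. EIF3C and EIF3CL are near-identical copies with 16 to 65 counts per library, and their separate values are not reliable.

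EIF3B, a core subunit that helps bind the mRNA, was called from 24 h on (ENSG00000106263, GRCh38 chromosome 7, 2354086 to 2380745). It had 282 and 297 CPM in the DMSO libraries, 248 and 237 CPM at 12 h, 237 and 231 CPM at 24 h, 217 and 211 CPM at 48 h, and 210.5 and 205 CPM at 96 h. All WA-68 libraries lay below both DMSO libraries, and those of 48 and 96 h were lower than those of 12 and 24 h. The log2 fold change of EIF3B was -0.26 at 12 h, which did not pass the test (SE 0.085, edgeR adjusted p = 0.104), then -0.31, -0.44 and -0.48 at 24, 48 and 96 h (edgeR adjusted p = 0.0421, 0.00183 and 0.000414). Without any single one of 7 libraries the call at 24 h was lost (edgeR adjusted p up to 0.365), and without replicate 2 of 48 h so was that at 48 h (0.0554).

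EIF3D, the subunit that can itself bind the cap, was called at 48 and 96 h. It had 118 and 128 CPM in the DMSO libraries, 104 and 102 CPM at 12 h, 106 and 95.8 CPM at 24 h, 92.8 and 93.1 CPM at 48 h, and 91.5 and 108 CPM at 96 h. Every WA-68 library lay below both DMSO libraries. Its log2 fold change was -0.41 at 48 h (SE 0.097, edgeR adjusted p = 0.00909) and -0.31 at 96 h (SE 0.097, edgeR adjusted p = 0.0326). DESeq2 did not call it at 96 h. The 48 h call was lost without either 48 h replicate (edgeR adjusted p up to 0.107) and the 96 h call without any single one of 8 libraries (up to 0.345).

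EIF3L was called at 96 h alone, with 118 CPM in both 96 h libraries against 150.3 and 155 CPM in DMSO, a log2 fold change of -0.37 (SE 0.087, edgeR adjusted p = 0.00537). Its call held without each library in turn, though 41.1% of its exons overlap a noncoding gene on the same strand. EIF3J, which sits near the mRNA channel of the small subunit, had 46.45 and 36.6 CPM at 96 h against 67.4 and 48.1 CPM in DMSO (log2 fold change -0.48, SE 0.13, edgeR adjusted p = 0.0163). Its groups were close to overlapping, and the call was lost without replicate 1 of DMSO or replicate 2 of 96 h (edgeR adjusted p up to 0.38). The scaffold subunits EIF3A, EIF3E and EIF3H had log2 fold changes of -0.25, -0.26 and -0.28 at 96 h, near the threshold (edgeR adjusted p = 0.0429, 0.0418 and 0.0343), and each lost its call without any single one of 7 or 8 of the 10 libraries. Of the subunits not called, EIF3F was at -0.23 and EIF3M at -0.07.

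**Figure D4:**
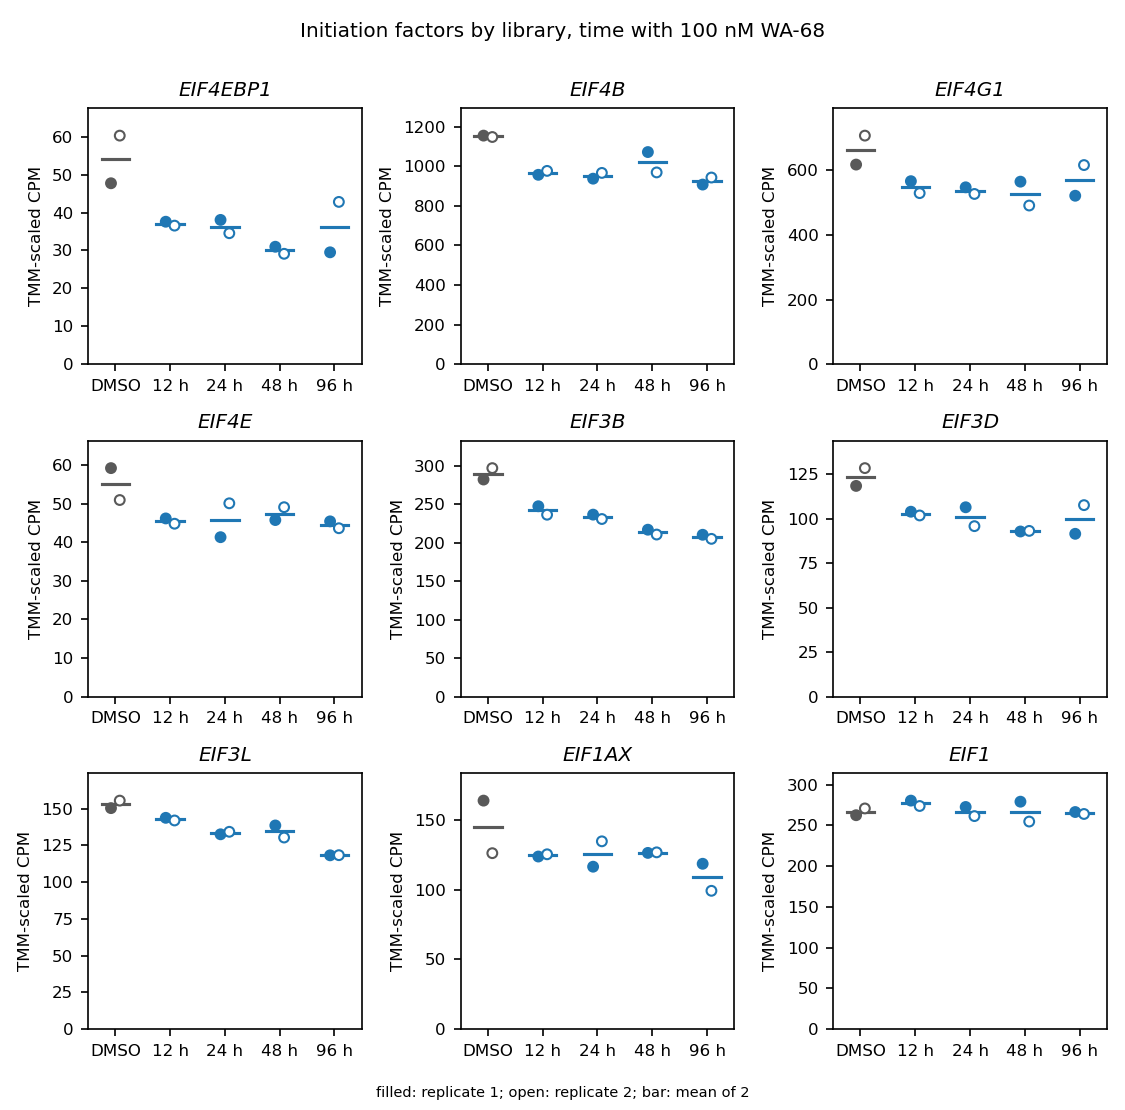
Each panel gives 1 initiation gene, with TMM-scaled CPM on the y axis from 0 and the group on the x axis. Points are libraries and bars the mean of 2. EIF4EBP1 and EIF3B lie below both DMSO libraries in every WA-68 library, and EIF1 averages 265 CPM at 96 h and 267 CPM in DMSO.

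Of the 11 genes of start codon choice and of the initiator tRNA complex, 1 fell at 96 h and 0 rose (9.09% lower, near the 6.86% of all genes), and 6 had an unadjusted p under 0.05, all lower. Their median log2 fold change was -0.21. The one called was EIF1AX (GRCh38 chromosome X, 20124518 to 20141844), which encodes eIF1A and helps the ribosome scan for the start codon. It had 119 and 99.2 CPM at 96 h, against 164 and 126 CPM in DMSO, a log2 fold change of -0.41 (SE 0.11, edgeR adjusted p = 0.0155). The groups did not overlap, but the call was lost without replicate 1 of DMSO or replicate 2 of 96 h (edgeR adjusted p up to 0.269). EIF1, which guards against wrong start codons, averaged 265 ± 1.70 CPM at 96 h and 267 ± 5.88 CPM in DMSO (SD, n = 2 each), with a log2 fold change of -0.01 (SE 0.085, edgeR adjusted p = 0.97). EIF2S1, the subunit of eIF2 that stress kinases phosphorylate, had a log2 fold change of -0.21 (SE 0.10, edgeR adjusted p = 0.207), and its libraries overlapped between groups.

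In the exchange factor eIF2B, which recharges eIF2, edgeR called 0 of 5 genes at 96 h, as did DESeq2 and limma-voom, and 2 had an unadjusted p under 0.05. Their log2 fold changes ran from -0.35 to 0.09. Among the 5 methyltransferases that modify eEF1A and eEF2, these 3 tools also called 0, and 1 gene had an unadjusted p under 0.05. EIF6, which keeps the large ribosomal subunit from joining, averaged 37.7 ± 0.24 CPM at 96 h and 41.7 ± 2.04 CPM in DMSO (SD, n = 2 each), and did not pass the test (log2 fold change -0.14, SE 0.12, edgeR adjusted p = 0.483).

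**Figure D5:**
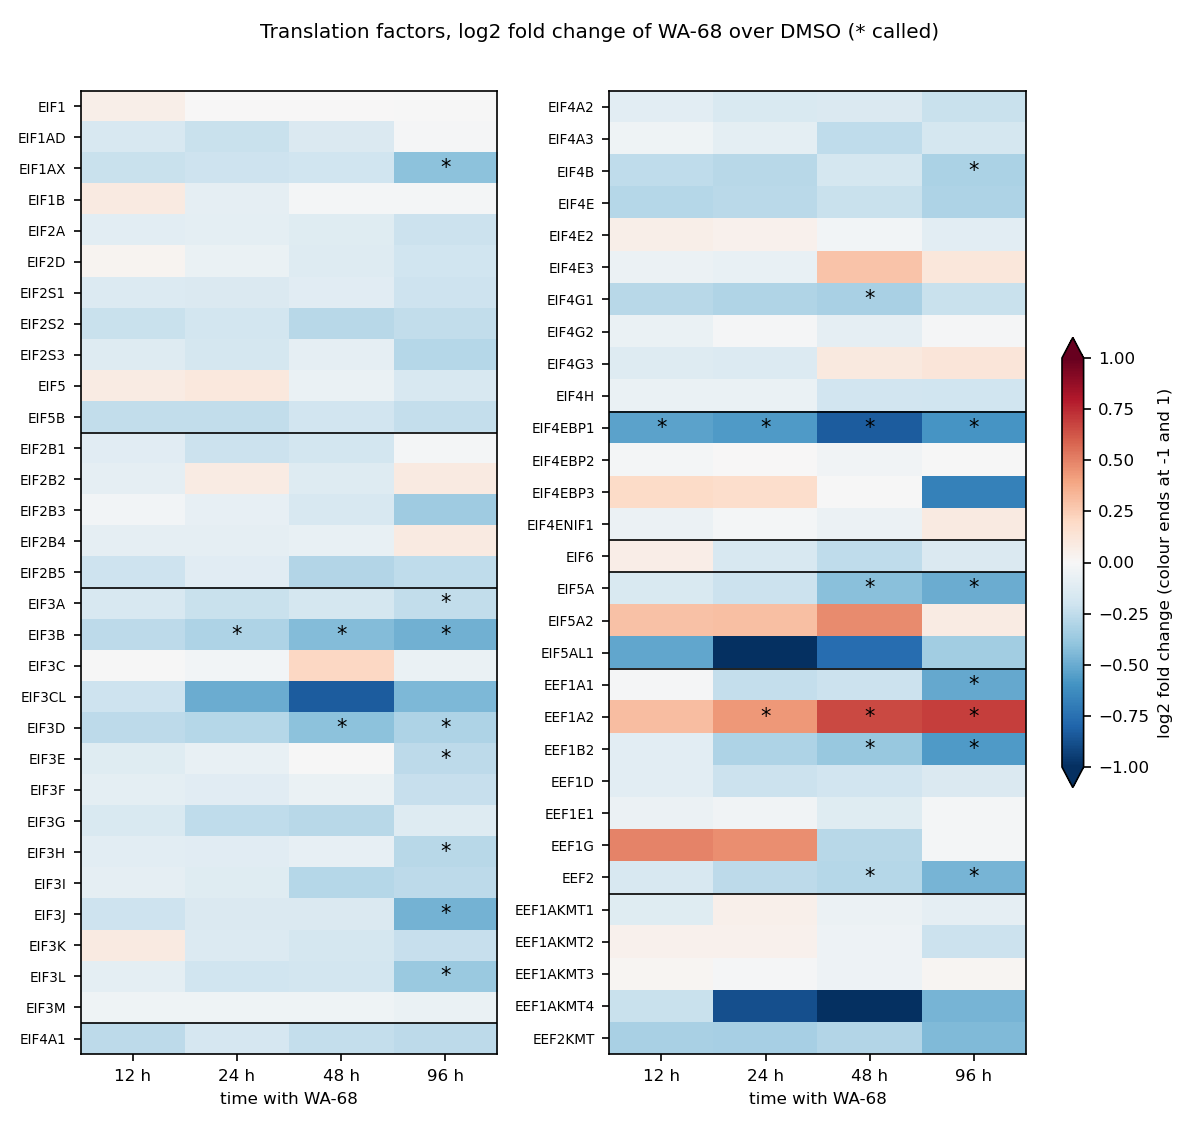
Rows are the 61 factors tested, grouped by role with black lines between roles, and columns are the time with WA-68. Colour gives the log2 fold change over DMSO, blue lower and red higher, and a star marks an edgeR adjusted p under 0.05. Stars number 1 at 12 h, 3 at 24 h, 8 at 48 h and 15 at 96 h, and EEF1A2 alone has red starred cells.

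Of the 10 genes known from earlier work as TOP mRNAs, 6 fell at 96 h (EEF1A1, EEF1B2, EEF2, EIF3E, EIF3H and EIF4B), 1 rose (EEF1A2) and 3 were not called, against 6.86% of all genes called lower and 6.14% called higher. The median log2 fold change of the 10 was -0.27. The median over all 61 factors was -0.22. At 48 h 2 of the 10 fell and 1 rose, against 5.38% of all genes called lower and 4.01% called higher. At 12 h edgeR and limma-voom called 0, with 2 at an unadjusted p under 0.05 in edgeR, while DESeq2 called 1 lower, EIF4B. The 10 include EEF1G, which cannot be read from these counts. Factors not on the list fell too, among them EIF5A and EIF3B, whose first listed starts hold no pyrimidine run. The first listed start of EEF1B2, which is on the list and fell, holds none either. EIF5A has 6 listed windows and EEF1B2 has 2, and only the first of each was read. A run of 6 or more at the start was found in 4 of the 9 factors lower at 96 h that had a window (44.4%) and in 7 of 39 tested but not lower (17.9%).

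A second motif, the E-box CACGTG (searched on both strands, on which it reads alike), is bound by MYC and related proteins. It was found in 13 of the 52 windows of factors (25%) and in 1851 of 22199 protein-coding windows (8.3%). EEF1AKMT4 and its read-through gene share a window and count as 2 of the 13. Here too the factors have 1 window each, while the 22199 include all windows listed for a gene. The sites in the genes of the cap-binding protein, the scaffold and the helicase's partner are shown, with the E-box in capitals.
EIF4E (chr4:98929188-98929217, minus strand): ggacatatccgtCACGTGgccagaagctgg
EIF4G1 (chr3:184314527-184314556, plus strand): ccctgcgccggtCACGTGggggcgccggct
EIF4B (chr12:53006422-53006451, plus strand): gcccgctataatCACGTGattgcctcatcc
The first base of these sites lies at -72 in EIF4E, -67 in EIF4G1 and -22 in EIF4B from the annotated start, and EIF4E and EIF4G1 have a second site further upstream. The E-box was found in 1 of the 9 factors lower at 96 h with a window (11.1%) and in 11 of 39 tested but not lower (28.2%). MYC, chosen here with its values known, had 280.5 and 330 CPM in the DMSO libraries, 144.5 and 136.5 CPM at 12 h, and 110 and 142 CPM at 96 h, and its part in the levels of the factors was not tested. The amino acid response element TGATGNAA, searched on both strands, was in 0 of 52 windows, against 598 of 22199 (2.7%). These are matches of letters and not measured binding sites.

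The step from 12 to 96 h was tested as a contrast of these groups, in the same fit over all 10 libraries. No DMSO culture is labelled as matched to 12 or to 96 h. Time with WA-68 therefore cannot be told apart from time in culture in this contrast. EEF1A2 rose and EEF1A1, EEF1B2 and EIF5A fell, so that 4 of the 61 factors were called (6.56%), against 4.13% of all genes (2.39% higher, 1.74% lower). EEF1A1 was lower at 96 h than at 12 h by about as much as it was below DMSO (log2 fold change -0.50, SE 0.073, edgeR adjusted p = 0.000205). EEF1A2 was higher by 0.38 (SE 0.095, edgeR adjusted p = 0.0207). EIF4EBP1, the gene called at 12 h, had a log2 fold change of -0.06 between 12 and 96 h (SE 0.14, edgeR adjusted p = 0.872). Between neighbouring times edgeR called 0 factors at 24 h against 12 h, where 0% of all genes were called, 0 at 48 h against 24 h (0.757% of all genes) and 0 at 96 h against 48 h (0.0366%). The factors with an unadjusted p under 0.05 numbered 3, 3 and 6, and DESeq2 called 0, 0 and 1, and limma-voom 0 in each. In the joint test of all 4 times against DMSO 10 factors were called (16.4%), against 10.9% of all genes.

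Other genes of protein synthesis were counted from lists chosen by role. The list for charging of cytosolic tRNAs held 22 genes, namely those of aminoacyl-tRNA synthetases with AIMP1 and AIMP2, which encode scaffolds of the synthetase complex. At 96 h 6 of the 22 fell and 0 rose, and neither AIMP1 nor AIMP2 was called. Among those that fell were FARSB, which averaged 40.9 CPM at 96 h and 62.2 CPM in DMSO (log2 fold change -0.60, SE 0.11, edgeR adjusted p = 0.000528), with QARS1 (-0.43), VARS1 (-0.47) and IARS1 (-0.38). Of the 7 genes on the list for poly(A) binding 3 fell. PABPC1 and PABPC4 bind the tail, while PDCD4, an inhibitor of eIF4A, was only counted with this list. PDCD4 had 31.74 and 24.42 CPM at 96 h, against 44.85 and 33.22 CPM in DMSO, so its groups were close to overlapping. PABPC1, itself a TOP mRNA, had 1892 and 2300 CPM at 96 h, against 2658 and 2649 CPM in DMSO (log2 fold change -0.34, SE 0.084, edgeR adjusted p = 0.00743). Of 8 genes that make the hypusine of eIF5A or the diphthamide of eEF2 3 fell, all of the diphthamide pathway (DPH2, DPH5 and DPH6).

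Termination and recycling had 2 of 7 genes lower at 96 h, GSPT1, the release factor GTPase (log2 fold change -0.29), and ABCE1, which splits the ribosome (-0.44). Of 13 kinases and phosphatase subunits 1 fell. It was EEF2K, the kinase that inhibits eEF2, with 38.2 and 37.3 CPM at 96 h against 58.7 and 60.8 CPM in DMSO (log2 fold change -0.66, SE 0.10, edgeR adjusted p = 8.98e-05). EEF2K and its substrate EEF2 were thus both lower. Of 8 mitochondrial translation factors 1 fell, TUFM, the mitochondrial counterpart of eEF1A (-0.45), and of the start codon helicases DHX29 and DDX3X edgeR, DESeq2 and limma-voom called 0, with 0 at an unadjusted p under 0.05. These shares may be read against the 6.86% of all genes that were called lower at 96 h.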

How the data were processed

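The deposited table holds raw counts per gene, as whole numbers with no normalization. The submitters' processing notes name bcl2fastq, FastQC, Trim Galore, cutadapt, STAR, featureCounts and GRCh38. Not given in the sources used here are tool versions, annotation release, strandedness in counting and how multiply mapped reads were treated. Gene symbols came from a name table (62541 of 63140 identifiers matched), positions and overlaps from GENCODE annotation of GRCh38, and promoters from RefSeq.

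Counts were fitted in edgeR 4.0.16 (R 4.3.3) with TMM scaling, filterByExpr (16382 genes kept), 1 mean per group over all 10 libraries, and Benjamini-Hochberg adjustment over all tested genes. Residual degrees of freedom were 5, prior ones 18.5, and the common biological variation 7.17%. The SE is the log2 fold change over the square root of F. An exact permutation test of 2 against 2 libraries cannot go below p = 0.333. The labels call the replicates biological and do not describe their cultures further. The members, lists and alternatives were chosen with earlier results of these data known. Named genes are 13 fixed members, up to 8 from the joint test and up to 5 per direction and comparison by adjusted p, and other members are given within their group. DESeq2 1.42.0, limma-voom 3.58.1 and other settings served as alternatives.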

Additional observations from a re-analysis of the deposited data

Results flagged for a closer look

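For 4 factors the difference from DMSO was itself different at 96 h and at 12 h, by the edgeR test of 96 h against 12 h over all genes. The log2 fold change at 96 h minus that at 12 h was -0.50 for EEF1A1 (adjusted p = 0.000205), with 6079 and 6338 CPM at 96 h and 8948 and 8648 CPM at 12 h. It kept its call without each library in turn. For EEF1B2 the difference was -0.46 (adjusted p = 0.00303), with 222 and 232 CPM at 96 h and 319.5 and 305 CPM at 12 h. Its call was lost without replicate 1 of 12 h (adjusted p = 0.0955). For EEF1A2 it was 0.38 (adjusted p = 0.0207), with 195 and 209 CPM at 96 h and 156 and 154 CPM at 12 h. That call was lost without either 12 h replicate or replicate 2 of 96 h (adjusted p up to 0.178). For EIF5A it was -0.34 (adjusted p = 0.0207), with 219 and 221 CPM at 96 h and 280.4 and 278 CPM at 12 h, and the call was lost without any single one of these 4 libraries (adjusted p up to 0.219).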

How the results depend on the processing

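Counts of called factors moved with the settings more than the fold changes did. Of the 15 factors called at 96 h, 8 stayed called whichever single library was left out, as did 2 of 8 at 48 h, 0 of 3 at 24 h, 0 of 1 at 12 h, and 1 of 4 between 12 and 96 h. Leaving out single libraries gave 0 to 1 higher and 0 to 3 lower at 12 h, 0 to 1 and 0 to 7 at 24 h, 1 to 2 and 1 to 11 at 48 h, 1 and 10 to 19 at 96 h, 0 to 1 and 1 to 6 at 96 h against 12 h, and 7 to 11 in the joint test. Where this left a group with 1 library, that library was assumed to vary like the other groups.

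With a GC offset the counts were 1 higher and 8 lower at 12 h, 12 lower at 24 h, 2 and 15 at 48 h, 22 lower at 96 h, 2 and 7 at 96 h against 12 h, and 19 in the joint test. Without replicate 2 of DMSO and replicate 2 of 96 h they were 1 and 8, 13 lower, 17 lower, 20 lower, 5 lower and 20. The counts without these 2 libraries come from a fit with 1 library of DMSO and 1 of 96 h. Its spread was taken from the pairs of 12, 24 and 48 h, whose replicates were closer. Those counts are listed as a setting only and cannot decide whether any call holds. The cause of the larger counts with the GC offset was not tested. The share of all genes called with this offset is not given, so those counts cannot be set against the shares above. With library size only there were 1 higher and 0 lower at 12 h, 1 lower at 24 h, 2 higher at 48 h and 8 lower at 96 h. RLE size factors and the filter of 5 CPM in 2 libraries each gave 2 higher at 48 h. With no filter there were 3 lower at 12 h and 7 at 24 h. DESeq2 gave 2 lower at 12 h and 4 at 24 h, and limma-voom 4 at 24 h. With only the libraries compared, which leaves fewer to estimate the spread, there were 1 lower at 24 h and 7 at 96 h. For 96 h the spread then rests on DMSO and 96 h alone, the groups whose replicates differed most. Each had a median absolute log2 replicate difference of 0.144 in the factors. The main fit also draws on the closer pairs of 12, 24 and 48 h (0.065, 0.063 and 0.103). The reason for the lower count at 96 h was not tested. At an adjusted p under 0.01 there were 0 lower at 12 and 24 h, 8 lower at 96 h, 0 higher at 96 h against 12 h and 6 in the joint test.

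The replicate differences gave little sign that replicate numbers pair the samples, and the labels do not say whether they do. The correlation of replicate differences between groups ran from -0.123 to 0.186, the latter between DMSO and 96 h. The fit with a replicate block gave 1 lower at 24 h and 12 lower at 96 h.

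The values that changed sign belong to genes that had not been called in that comparison. EEF1A1 at 12 h was 0.054 with library size only and -0.063 to 0.039 without single libraries. EIF1 at 96 h was 0.004 with RLE factors, DESeq2 (0.0042) or the GC offset, 0.04 with library size only, 0.013 with the stricter filter, 0.026 without both libraries, 0.0086 with only the libraries compared, and -0.033 to 0.013 without single libraries. EIF5A2 at 96 h ran from -0.093 to 0.33 and EIF4EBP1 at 96 h against 12 h from -0.33 to 0.21 without single libraries.

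The counts of EEF1G (4 to 12 per library) and EIF4EBP3 (10 to 24) are low and lie in exons shared with other genes, and neither gene was called. EIF4EBP3 had a log2 fold change of -0.86 at 96 h against 12 h (SE 0.40, adjusted p = 0.261).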
